A study of Mus musculus with 6 samples.

Results

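The genes described here encode the RNA exosome and the factors that assemble ribosomes in the nucleolus. Members were taken by symbol: every Exosc, Utp, Nop, Nol or Rrp symbol followed by a digit, plus 13 named genes, among them the exosome nuclease Dis3, its cofactors, and the snoRNP and nucleolar proteins Fbl, Dkc1, Ncl and Npm1. This gave 55 of the 23235 rows of the table. By known role, 16 belong to the exosome and 37 to ribosome assembly. The remaining 2, Nol3 and Nol4, share only the form of the symbol. A total of 54 members passed the filter on low values (an average level of 1 FPKM or more across libraries, met by 12029 genes), and Nol3 did not, at 0.567, 1.22 and 0.752 FPKM in WT and 0.296, 0.570 and 0.531 FPKM in KO.

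The exosome is a barrel of RNase PH-like ring subunits closed by a cap of RNA-binding subunits. In animals the barrel itself does not cut RNA: the bound nucleases DIS3 and EXOSC10 do, and helicase and adaptor proteins bring them their substrates. One of its main tasks in the nucleus is to trim the precursors of ribosomal RNA and small nucleolar RNA. It therefore acts on the same pre-ribosomes that the UTP, NOP, NOL and RRP proteins fold, modify and cleave. A growing oocyte builds the stock of ribosomes that the early embryo uses, and nucleolar transcription falls silent when growth ends.

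Both groups were fully-grown germinal vesicle (GV) oocytes of C57BL/6 mice, collected 44 to 48 h after PMSG, a gonadotropin that drives follicle growth; the sample names of both carry the tag 6W. One group was wild type (WT) and the other carried a knock-out (KO) of Rtcb, the gene of the RNA ligase of tRNA splicing and of Xbp1 mRNA splicing, with 3 libraries per genotype and 10 oocytes pooled in each library. The allele, the deleted part and any Cre driver are not given in these sources. The labels do not tell whether the pools derived from different animals, so p-values speak only of the variation among these pools, which could be technical.

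Values are FPKM (fragments normalized for transcript length and library size) scaled by the authors to ERCC spike-in RNA. The depth of each library is unknown. Rtcb, listed as D10Wsu52e, was at 136, 133 and 113 FPKM in WT and at 3.82, 2.62 and 2.49 FPKM in KO. The scaling is a single factor per genotype, 2 in WT and 4/3 in KO. Being the same in every library of a genotype, it cannot be told apart from genotype. The p-values on the deposited scale treat these factors as exact, and any error in them is left out. The ratio of KO to WT thus stands at 0.667 of what it would be without the factors (−0.58 on the log2 scale). On the deposited scale limma called 63.3% of tested genes, 9.29% higher and 54.0% lower in KO, with a median log2 fold change of −0.47; with the factors removed the total was 43.7% and the shares 25.7% and 18.0%, with a median of 0.043. The counts for each list are therefore given on both scales, and those shares are the background for them. In pools of whole oocytes, less RNA per cell and fewer intact cells cannot be told apart. All 10 oocyte markers were present (summed 28084 to 32072 FPKM in WT and 19054 to 20290 FPKM in KO). The 12 granulosa and cumulus markers summed to 56.4 to 64.6 FPKM in WT and 45.5 to 57.8 FPKM in KO, with 7 at a mean under 1 FPKM and Cyp19a1 the highest at 28.6 FPKM. The 5 blood and immune markers summed to 3.04 to 5.08 FPKM in WT and 0.951 to 3.41 FPKM in KO, with Hbb-b1 and Hba-a1 at 0. The part of either in the results was not tested.

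Most exosome transcripts were lower in KO oocytes on the deposited scale. The median of the enzymes and their adaptors lay below that of the barrel, though not every gene followed this order. Of the 16 genes, 12 fell and 2 rose, Exosc6 and C1d (54.0% and 9.29% of all tested genes), with a median log2 fold change of −0.50 against −0.47 for all tested genes. With the genotype factors removed, 3 rose, 2 fell (25.7% and 18.0% of all tested genes) and 11 did not pass the test, with a median of 0.061. The helicase gene Skiv2l2 and the nuclease gene Exosc10 were the 2 that fell on both scales, and Exosc6 and C1d rose on both. Among the 9 ring and cap genes, 6 fell and 1 rose (median −0.36), and with the factors removed limma called none lower, 0 also at an unadjusted p under 0.05, and 2 higher (median 0.22). Among the 7 catalytic and cofactor genes, 6 fell and 1 rose (median −0.76), and with the factors removed 2 fell and 1 rose (median −0.18). The difference between these subgroups was not tested.

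The ring subunits gave a wide range of transcript levels for proteins that stand at equal number in the barrel. Exosc7 was the most abundant in WT, at 224, 250.1 and 264 FPKM in WT and 201, 181 and 190.2 FPKM in KO. Exosc6 was the least abundant, at 10.8, 13.4 and 11.7 FPKM in WT and 27.4, 15.8 and 27.5 FPKM in KO. In WT the means of the ring and cap genes spanned 20.5-fold, from 12.0 FPKM for Exosc6 to 246 FPKM for Exosc7, and in KO 8.10-fold. FPKM are per length, so these levels can be set side by side. Exosc6 was thus the scarcest barrel transcript, and it rose 1.97-fold by the means (log2 fold change 0.88, SE 0.215, limma adjusted p = 0.00788). All 3 KO libraries lay above all WT libraries for it, with KO 2 close to the WT range and KO 1 and KO 3 well above it. Removal of the factors gave a log2 fold change of 1.38 (limma adjusted p = 0.00234). Its only exon, 1326 bases, lies wholly within exons of Aars on the same strand in GENCODE, so its reads cannot be separated from those of Aars with certainty. Aars itself was at 21.2, 17.3 and 15.8 FPKM in WT and 13.9, 12.8 and 14.6 FPKM in KO.

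The other ring genes were moderately to highly abundant and lay a little lower in KO. Exosc8 was at 182, 212 and 218 FPKM in WT and 161, 174 and 181 FPKM in KO, and Exosc4 at 110.1, 104 and 108 FPKM in WT and 91.2, 87.6 and 75.4 FPKM in KO. Exosc5 was at 100.2, 102 and 118 FPKM in WT and 67.9, 83.4 and 74.8 FPKM in KO. In each of these every KO library lay below every WT library, as in 57.5% of all tested genes on the deposited scale. With the factors removed, Exosc5 overlapped and the KO libraries of Exosc8 and Exosc4 lay above their WT libraries.

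The log2 fold changes were −0.35 (limma adjusted p = 0.0162) for Exosc4, −0.49 (limma adjusted p = 0.00553) for Exosc5, −0.36 (limma adjusted p = 0.0104) for Exosc7 and −0.53 (limma adjusted p = 0.00927) for Exosc9. Exosc8 did not pass the test (−0.24 (limma adjusted p = 0.063), 95% interval −0.47 to −0.012), and it passed as higher once the factors were removed, at 0.34 (limma adjusted p = 0.0269), a call lost without KO 2, KO 3, WT 1 or WT 2 (adjusted p up to 0.0946). The other 4 did not pass with the factors removed, with log2 fold changes from 0.038 to 0.23. The call of Exosc4 was lost without KO replicate 3 (adjusted p = 0.0562). Exosc9, whose exons overlap those of Ccna2 on the opposite strand by 510 bases, was at 55.3, 57.6 and 42.5 FPKM in WT and 35.8, 32.8 and 37.1 FPKM in KO. The library method does not mark strand, so such shared bases cannot be assigned to one gene. Other members also share exon bases with genes on the opposite strand. Among them are Rrp7a (678 bases, Serhl), Nol7 (453, Ranbp9), Exosc4 (385, Oplah) and Exosc2 (358, Gm13427). Exosc5 (355, Tmem91), Rrp8 (355, Ilk) and Dis3 (325, Pibf1) do so too, and the list is not complete.

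Of the cap genes, whose proteins feed RNA into the barrel, 2 fell and 0 rose on the deposited scale (54.0% and 9.29% of all tested genes). Exosc3 was at 195, 234 and 238 FPKM in WT and 169.8, 169.9 and 176 FPKM in KO. Exosc1 was at 122, 133 and 133 FPKM in WT and 77.0, 92.5 and 78.0 FPKM in KO. Exosc2, the least abundant cap gene, was at 33.9, 40.4 and 46.5 FPKM in WT and 32.3, 38.8 and 34.6 FPKM in KO, and its groups overlapped. Exosc1 fell (log2 fold change −0.65, SE 0.103, limma adjusted p = 0.000996) and Exosc3 fell by less (−0.36 (limma adjusted p = 0.0137)), a call that was lost without WT replicate 2 (adjusted p = 0.0564). For Exosc2 the log2 fold change was −0.18 (limma adjusted p = 0.282), 95% interval −0.50 to 0.14. With the factors removed the cap genes stood at −0.067 (limma adjusted p = 0.615), 0.38 (limma adjusted p = 0.0517) and 0.22 (limma adjusted p = 0.109), in the order of their numbers, and none passed by limma, with Exosc2 alone under 0.05 before adjustment.

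Of the 2 nucleases, Exosc10, a nucleolar enzyme of the RNase D family, was at 67.2, 59.8 and 54.0 FPKM in WT and 31.2, 28.9 and 29.9 FPKM in KO. KO libraries lay close together and the groups did not overlap. Its fall, 2.01-fold by the means (log2 fold change −0.98, SE 0.110, limma adjusted p = 0.000259), was past the test on both scales, with −0.40 (limma adjusted p = 0.0196) after removal of the factors. That second call was lost without KO 3, WT 1 or WT 2 (adjusted p up to 0.0614). Dis3, the processive nuclease at the base of the barrel, was at 5.95, 5.47 and 3.76 FPKM in WT and 2.98, 3.57 and 3.14 FPKM in KO. It was 11.9-fold scarcer than Exosc10 in WT. Its fall was small and unstable (log2 fold change −0.50, SE 0.182, limma adjusted p = 0.0408): leaving out KO 1, KO 3, WT 1 or WT 2 ended the call, with adjusted p up to 0.123 without WT replicate 2.

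Cofactors held both extremes of the exosome genes. Skiv2l2 encodes MTR4, the helicase that unwinds RNA ahead of the nuclear exosome. It was at 40.0, 32.4 and 35.5 FPKM in WT and 15.3, 14.6 and 12.9 FPKM in KO, a fall of 2.52-fold by the means (log2 fold change −1.27, SE 0.125, limma adjusted p = 0.000183). The fall was past the test with the factors removed, at −0.70 (limma adjusted p = 0.00369), also after any single library was left out (adjusted p up to 0.0198). Its exons share 452 bases with Plpp1 on the opposite strand. Zcchc8 and Rbm7 form, with that helicase, the nuclear exosome targeting complex. Zcchc8 was at 147, 154 and 147 FPKM in WT and 84.9, 83.9 and 88.1 FPKM in KO. Rbm7 was at 372, 363 and 347 FPKM in WT and 212, 239 and 189 FPKM in KO. Both fell on the deposited scale, with log2 fold changes of −0.79 (limma adjusted p = 0.000196) and −0.76 (limma adjusted p = 0.000498), and neither passed with the factors removed, at −0.21 (limma adjusted p = 0.0599) and −0.18 (limma adjusted p = 0.191).

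Mphosph6, a small cofactor that binds the barrel beside EXOSC10, was by far the most abundant member, at 3632, 4256 and 4565 FPKM in WT and 2435, 2919 and 2377 FPKM in KO. It ranked at place 25 by mean level among all tested genes in WT and at place 32 in KO. It made up 41.3% to 43.8% of the summed FPKM of the members in WT and 36.7% to 41.4% in KO. Its fall (log2 fold change −0.69, SE 0.124, limma adjusted p = 0.00184) did not pass with the factors removed, at −0.10 (limma adjusted p = 0.53). C1d, the partner of EXOSC10 that holds it to RNA, was at the other end, at 3.36, 2.93 and 1.60 FPKM in WT and 15.2, 6.47 and 9.60 FPKM in KO. Every KO library lay above every WT library, and KO 2 was the lowest of the KO libraries. It rose 3.96-fold by the means (log2 fold change 1.61, SE 0.308, limma adjusted p = 0.00241), and between 3.05-fold and 4.70-fold with 1 library left out. The plot of exosome levels shows that it passed from the lowest level of the 16 genes in WT to a level above that of Dis3.

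**Figure D1:**
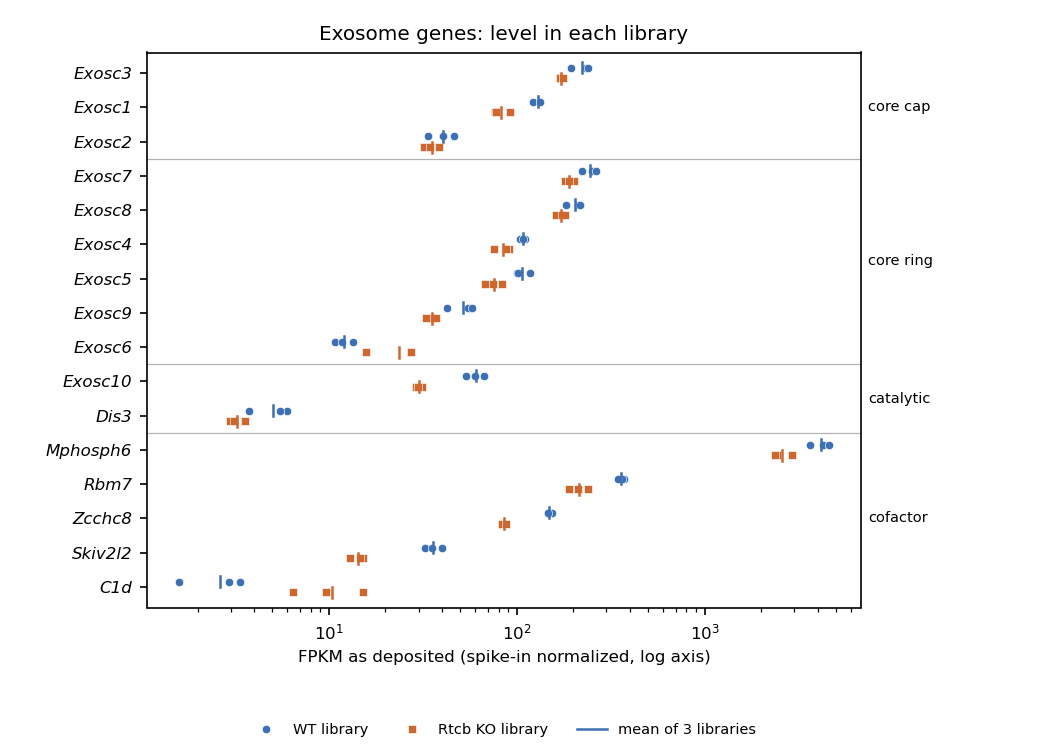
Level of each exosome gene in each library, in deposited FPKM on a log axis; circles are WT libraries, squares are Rtcb KO libraries and short vertical lines are means of 3. Squares lie to the left of circles for most genes, and to the right for Exosc6 and C1d.

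Ribosome assembly genes were lower in KO oocytes by a little more than the median of all tested genes, and were also more abundant than these. Of 37 tested, 27 fell and 3 rose, Nop2, Nop16 and Nol11 (54.0% and 9.29% of all tested genes), with a median log2 fold change of −0.62, or 0.15 below that of all genes; with the factors removed 8 fell and 6 rose (18.0% and 25.7% of all tested genes), with a median of −0.040. Nop16 was tested only because its KO libraries lifted it over the filter on low values, so its rise is no support for these counts; without it 2 genes rose on the deposited scale and 5 once the factors were removed. The genes that fell on the deposited scale included those of all 5 roles: 14 of 19 small-subunit, 7 of 9 large-subunit, 3 of 3 box C/D, 2 of 4 box H/ACA genes, and Ncl of the 2 nucleolar scaffold genes. After removal of the factors the 8 falls were those of 5 small-subunit and 3 large-subunit genes. The box H/ACA genes Nhp2 and Nop10 and the small-subunit gene Rrp7a rose, beside the 3 above. Median WT levels were 46.5 FPKM for the assembly list, 107 FPKM for the exosome list and 19.2 FPKM for all tested genes. Of all tested genes at 20 FPKM or more, 66.2% fell on the deposited scale, with a median log2 fold change of −0.56. The members at that level, from both lists, stood at 80.5% and −0.60. The part of expression level in the gap of 0.15 was not tested.

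Box C/D snoRNPs place methyl groups on ribosomal RNA. Their methyltransferase fibrillarin is encoded by Fbl, at 37.1, 41.0 and 34.7 FPKM in WT and 27.5, 27.7 and 26.8 FPKM in KO. The scaffold protein genes Nop56 and Nop58 were at 198, 223 and 204 FPKM in WT and 142, 129 and 134 FPKM in KO, and at 108, 117 and 108 FPKM in WT and 91.2, 79.4 and 97.1 FPKM in KO, respectively. In all 3 genes every KO library lay below every WT library, as in 57.5% of all tested genes on the deposited scale. With the factors removed, Nop56 and Fbl overlapped and the KO libraries of Nop58 lay above its WT libraries. Their log2 fold changes were −0.62 (limma adjusted p = 0.000598) for Nop56, −0.44 (limma adjusted p = 0.00656) for Fbl and −0.32 (limma adjusted p = 0.0265) for Nop58. That of Nop58 was not past the test without WT replicate 2 (adjusted p = 0.0935), nor without KO replicate 1 or KO replicate 2. After removal of the factors limma called 0 of the 3, with 1, Nop58, higher at an unadjusted p under 0.05.

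Box H/ACA snoRNPs convert uridines of ribosomal RNA to pseudouridine. Dkc1, the gene of the enzyme dyskerin, was at 125, 134 and 149.9 FPKM in WT and 93.7, 90.6 and 102 FPKM in KO. Gar1 was at 26.0, 48.7 and 26.4 FPKM in WT and 11.3, 12.8 and 17.8 FPKM in KO. WT 2 stood apart for Gar1, well above the other 5 libraries, and without it the ratio of KO to WT moved from 0.414 to 0.533, still with Gar1 past the test. The genes of the small core proteins had the log2 fold changes nearest to 0 of the 4 on the deposited scale. Nhp2 was at 132, 161 and 169 FPKM in WT and 135, 132 and 159 FPKM in KO, and Nop10 at 217, 287 and 267 FPKM in WT and 238, 232 and 258 FPKM in KO. WT and KO values of both overlapped. Dkc1 and Gar1 fell, with log2 fold changes of −0.51 (limma adjusted p = 0.00292) and −1.18 (limma adjusted p = 0.00521). Nhp2 stood at −0.11 (limma adjusted p = 0.442), 95% interval −0.40 to 0.17, and Nop10 at −0.073 (limma adjusted p = 0.602), 95% interval −0.34 to 0.20. With the factors removed Dkc1 was nearest to 0, at 0.072 (limma adjusted p = 0.58), and Nhp2 and Nop10 passed as higher, at 0.46 (limma adjusted p = 0.0183) and 0.51 (limma adjusted p = 0.0105), the former call being lost without KO 3 (adjusted p = 0.0706). Proteins of 1 particle thus had transcripts whose log2 fold changes lay 1.10 apart.

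Nucleolin and nucleophosmin organize the nucleolus. Ncl was at 145, 163 and 177 FPKM in WT and 120.0, 122 and 128 FPKM in KO, without overlap. Npm1, the second most abundant member, was at 1079, 987 and 1502 FPKM in WT and 948, 1071 and 1035 FPKM in KO, with overlap. Ncl fell (−0.38 (limma adjusted p = 0.00975)), and Npm1 did not pass (−0.20 (limma adjusted p = 0.279), 95% interval −0.56 to 0.16). Npm1 has processed copies in the mouse genome, and how reads shared with them were counted is not stated. Neither passed with the factors removed, at 0.20 (limma adjusted p = 0.135) and 0.38 (limma adjusted p = 0.078).

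Small-subunit factors act on the nascent pre-ribosome that is cut and folded around the U3 snoRNA. The largest falls of all members were here. Utp20, a very large scaffold protein, was at 14.1, 14.8 and 20.7 FPKM in WT and 5.58, 6.13 and 5.35 FPKM in KO. Rrp12, a repeat protein that accompanies the particle out of the nucleus, was at 8.93, 8.08 and 5.98 FPKM in WT and 2.63, 2.19 and 2.81 FPKM in KO. Utp15, of the complex that first meets the transcript, was at 31.2, 29.4 and 26.1 FPKM in WT and 11.7, 11.0 and 10.6 FPKM in KO. No KO library reached the WT range in any of them, on the deposited scale or with the factors removed. The KO libraries lay wholly below in 57.5% and 24.7% of all tested genes on these scales. By the means they fell 2.91-fold, 3.01-fold and 2.60-fold. The log2 fold changes were −1.37 (limma adjusted p = 0.000335) for Utp20, −1.28 (limma adjusted p = 0.000557) for Rrp12 and −1.30 (limma adjusted p = 0.000166) for Utp15. With the factors removed they were −0.80 (limma adjusted p = 0.00609), −0.72 (limma adjusted p = 0.00879) and −0.73 (limma adjusted p = 0.00266) in that order, and all 3 calls held with any library left out (adjusted p up to 0.0298, 0.0377 and 0.0159).

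Nol7 was at 35.8, 38.9 and 44.3 FPKM in WT and 16.7, 21.6 and 17.8 FPKM in KO, and Utp18 at 165, 174 and 144 FPKM in WT and 94.2, 85.1 and 89.2 FPKM in KO. Nol6, a partner of the U3 particle, was at 8.80, 7.65 and 7.84 FPKM in WT and 4.09, 2.89 and 3.90 FPKM in KO. All 3 fell, with log2 fold changes of −1.05 (limma adjusted p = 0.000425), −0.84 (limma adjusted p = 0.000309) and −0.98 (limma adjusted p = 0.00107). Nol7 and Nol6 passed with the factors removed (−0.47 (limma adjusted p = 0.0232) and −0.45 (limma adjusted p = 0.038)), and lost that call, Nol7 without KO 1, KO 3, WT 2 or WT 3 (adjusted p up to 0.0809) and Nol6 without any 1 of the 6 libraries (adjusted p up to 0.108). Utp18 did not (−0.26 (limma adjusted p = 0.0665)). Mphosph10, a component of the U3 particle, had the highest WT mean of the small-subunit genes, at 189, 221 and 229 FPKM in WT and 118, 145 and 114 FPKM in KO (−0.76 (limma adjusted p = 0.00106)). Utp11l followed, at 163, 206 and 228 FPKM in WT and 145, 165 and 137 FPKM in KO. WT 1 of Utp11l lay within the KO range, and its fall (−0.41 (limma adjusted p = 0.0309)) was lost without KO 1, KO 3, WT 2 or WT 3, with adjusted p up to 0.105 without KO 3.

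The other small-subunit genes that fell were Utp3, Nop14, Rrp9, Nol10, Utp6 and Utp14a, with log2 fold changes from −0.79 for Nop14 to −0.31 for Utp14a. The last was lost without KO 1, KO 3, WT 2 or WT 3, with adjusted p up to 0.0774 without KO replicate 1. Utp23, Utp14b, Rrp36 and Rrp7a did not pass (unadjusted p of 0.0525, 0.232, 0.42 and 0.911). Utp14b, a retroposed copy of Utp14a that shares 244 exon bases with Acsl3 on the same strand, was at 3.58, 3.89 and 1.83 FPKM in WT and 2.38, 2.47 and 1.90 FPKM in KO. Its values overlapped between genotypes, at a WT mean of 3.10 FPKM against 31.5 FPKM for Utp14a.

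Rrp7a was at 54.5, 50.9 and 40.8 FPKM in WT and 52.2, 41.0 and 54.7 FPKM in KO, the value nearest to no change of all members (0.018 (limma adjusted p = 0.928), 95% interval −0.33 to 0.37), and passed as higher with the factors removed (0.58 (limma adjusted p = 0.0161)), a call lost without KO 1 or KO 3 (adjusted p up to 0.0653). Nol11, of the same early complex as Utp15, was at 2.35, 1.08 and 1.18 FPKM in WT and 4.91, 3.53 and 3.29 FPKM in KO. All KO values lay above all WT values, and WT 1 was the highest WT library. The rise was 2.55-fold by the means (log2 fold change 0.97, SE 0.231, limma adjusted p = 0.00694) and ranged from 2.22-fold to 3.47-fold with 1 library left out. Nol11 shares 437 exon bases with the antisense gene Gm11715 on the opposite strand, and reads there cannot be assigned to 1 gene.

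Large-subunit factors showed the same spread. Rrp8, a methyltransferase of large-subunit ribosomal RNA, was at 70.0, 67.5 and 63.5 FPKM in WT and 33.8, 37.0 and 31.6 FPKM in KO. Nol8 was at 43.2, 42.7 and 53.8 FPKM in WT and 19.0, 24.8 and 18.8 FPKM in KO. Rrp1, of the inner pre-ribosome, was at 34.3, 30.1 and 27.4 FPKM in WT and 14.7, 13.0 and 17.1 FPKM in KO. Its relative Rrp1b was at 47.3, 48.3 and 50.4 FPKM in WT and 26.7, 31.2 and 29.1 FPKM in KO. In these 4 genes the highest KO library lay below the lowest WT library, on the deposited scale and with the factors removed. This held for 57.5% and 24.7% of all tested genes on these scales. Log2 fold changes were −0.95 (limma adjusted p = 0.000221) for Rrp8, −1.12 (limma adjusted p = 0.000451) for Nol8, −0.99 (limma adjusted p = 0.000606) for Rrp1 and −0.73 (limma adjusted p = 0.000554) for Rrp1b. Rrp8, Nol8 and Rrp1 passed with the factors removed (−0.38 (limma adjusted p = 0.0182), −0.55 (limma adjusted p = 0.0189) and −0.42 (limma adjusted p = 0.0395)), and none of these calls held throughout: that of Rrp8 was lost without KO 1, KO 3, WT 1 or WT 2 (adjusted p up to 0.0687), that of Nol8 without KO 1, KO 3 or WT 3 (up to 0.0722) and that of Rrp1 without KO 1, KO 2, WT 1 or WT 2 (up to 0.121). Nol12, the most abundant of the role, was at 123, 138 and 157 FPKM in WT and 87.2, 97.3 and 90.1 FPKM in KO and fell on the deposited scale (−0.60 (limma adjusted p = 0.00202)), as did Nol9, a polynucleotide kinase of rRNA processing, and Rrp15 (−0.80 (limma adjusted p = 0.000727) and −0.46 (limma adjusted p = 0.00284)). None of these 3 passed with the factors removed, at −0.016 (limma adjusted p = 0.917), −0.24 (limma adjusted p = 0.135) and 0.12 (limma adjusted p = 0.298).

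The 2 large-subunit genes that rose had the lowest levels of the role. Nop2, a cytosine methyltransferase of ribosomal RNA, was at 7.66, 4.30 and 2.82 FPKM in WT and 14.2, 6.70 and 11.9 FPKM in KO. KO 2 lay below WT 1, so the groups overlapped. The rise was 2.22-fold by the means (log2 fold change 1.04, SE 0.344, limma adjusted p = 0.0293), and it was lost without KO replicate 1 (adjusted p = 0.0957) and also without KO 3, WT 2 or WT 3. Nop16 was at 0.658, 1.10 and 0.349 FPKM in WT and 3.20, 1.39 and 3.75 FPKM in KO, without overlap. Its KO mean was 3.95-fold its WT mean, between 3.16-fold and 5.52-fold with 1 library left out. Since it passed the filter on low values only through its KO libraries, its levels are given as a description with no test, and the number of reads behind its WT values is unknown.

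**Figure D2:**
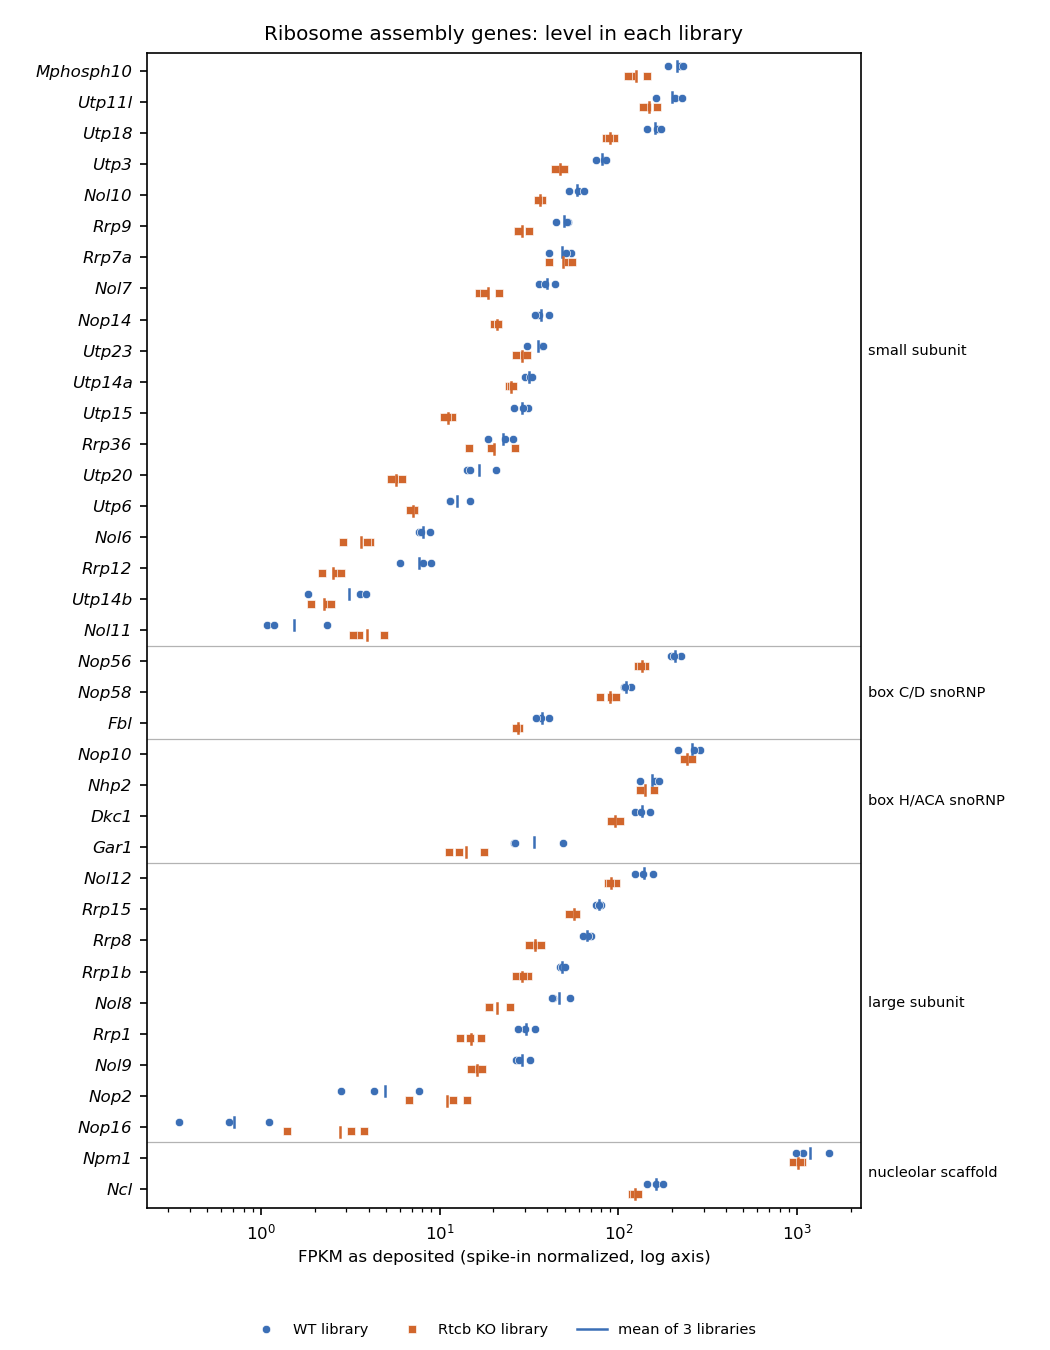
Level of each ribosome assembly gene in each library, in deposited FPKM on a log axis, ordered by role; circles are WT libraries, squares are Rtcb KO libraries and short vertical lines are means of 3. Squares lie to the left for most genes of every role, and to the right for Nol11, Nop2 and Nop16, which are at the low end of the axis.

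Promoter sequence was set beside these changes because many ribosome assembly genes are textbook targets of MYC, which binds the palindrome CACGTG, also called an E-box. The windows run from 250 bases before to 50 bases after a gene's start and come from RefSeq on GRCm38.p6. The expression values were made on build mm9, so these coordinates serve for the windows only. A total of 44 of the 55 members had a window, with 49 windows in all. The letters CACGTG, which read the same on both strands, stood in 7 of the 49 windows (14.3%), against 9.78% of the windows of tested genes and 7.15% of all windows. By list this was 1 of 15 exosome windows and 6 of 34 ribosome assembly windows. The second motif searched, CCGGAAG on either strand, the core letters of ETS factor sites, stood in 15 of 49 windows (30.6%), against 17.5% for tested genes and 8.86% for all. Neither motif contains the other, and no test was made. The 7 members with CACGTG were Exosc5, Nol11, Nop2, Rrp7a, Utp14b, Utp18 and Utp20. They include 2 that rose and 3 that fell on the deposited scale (9.29% and 54.0% of all tested genes). With the factors removed 3 rose and 1 fell, Utp20 (25.7% and 18.0% of all tested genes). The windows of 2 of each are shown because their transcripts moved in opposite directions on the deposited scale while both carry the letters, which are in capitals:

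Nop2: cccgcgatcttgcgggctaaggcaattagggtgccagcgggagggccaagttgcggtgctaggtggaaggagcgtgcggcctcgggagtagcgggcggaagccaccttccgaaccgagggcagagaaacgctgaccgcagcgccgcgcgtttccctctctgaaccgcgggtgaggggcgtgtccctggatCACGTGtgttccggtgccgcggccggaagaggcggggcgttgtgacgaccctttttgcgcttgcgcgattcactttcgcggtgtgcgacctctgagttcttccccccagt

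Nol11: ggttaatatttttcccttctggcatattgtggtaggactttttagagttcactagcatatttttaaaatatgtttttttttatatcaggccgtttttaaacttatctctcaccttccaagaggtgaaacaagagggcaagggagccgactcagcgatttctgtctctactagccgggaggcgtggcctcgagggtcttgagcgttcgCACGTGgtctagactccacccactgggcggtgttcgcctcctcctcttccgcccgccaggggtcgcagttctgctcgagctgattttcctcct

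Utp20: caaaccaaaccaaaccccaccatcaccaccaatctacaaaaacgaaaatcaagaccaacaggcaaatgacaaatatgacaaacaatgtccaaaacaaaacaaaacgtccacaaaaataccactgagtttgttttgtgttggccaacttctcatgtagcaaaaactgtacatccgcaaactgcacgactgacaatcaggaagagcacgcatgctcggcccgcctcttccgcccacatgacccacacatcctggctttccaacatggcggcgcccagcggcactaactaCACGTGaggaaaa

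Utp18: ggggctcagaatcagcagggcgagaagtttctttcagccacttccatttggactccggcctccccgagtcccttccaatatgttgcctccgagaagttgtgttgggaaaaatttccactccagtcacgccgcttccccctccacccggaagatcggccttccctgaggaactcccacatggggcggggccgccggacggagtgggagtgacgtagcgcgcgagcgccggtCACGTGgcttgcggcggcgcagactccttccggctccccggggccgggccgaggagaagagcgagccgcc

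The Nop2 window is chr6:125131633-125131932 on the plus strand, with the motif beginning 60 bases before the start. That of Nol11 is chr11:107189332-107189631 on the minus strand, with the motif 43 bases before the start. That of Utp20 is chr10:88826765-88827064 on the minus strand, with the motif 37 bases after the start, and that of Utp18 is chr11:93885717-93886016 on the minus strand, with the motif 20 bases before the start. By the choice of windows, the letters stood with a rise of Nop2 and Nol11 and a fall of Utp20 and Utp18 on the deposited scale. Utp18 did not pass with the factors removed (limma adjusted p = 0.0665). The windows of Nop2 and Utp18 also hold CCGGAAG, which is not in capitals. A match is a description of the letters in the window and not a binding site.

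The contrast of exosome with ribosome assembly can be read within a library, where a factor common to all its genes cancels apart from the pseudocount. The mean log2(FPKM + 1) of the 16 exosome genes minus that of the 37 assembly genes was 0.903, 0.896 and 0.909 in the WT libraries and 1.09, 1.10 and 1.00 in the KO libraries. All KO values lay above all WT values, and the WT values lay closer together than the KO values. The means were 0.903 ± 0.0069 in WT and 1.07 ± 0.053 in KO (SD, n = 3), a difference of 0.16. C1d carried most of it: without C1d the values were 1.19, 1.19 and 1.24 in WT and 1.23, 1.31 and 1.18 in KO, which overlap, and the difference was 0.031. Without C1d and Exosc6 it turned to −0.066, and without the 5 members that rose it was 0.071, both with overlap. Against the mean of all tested genes the exosome list moved by 0.029 between genotypes and the assembly list by −0.13. On the same scale the ring and cap genes exceeded the catalytic and cofactor genes by 0.15, 0.36 and 0.51 in WT and by 0.49, 0.57 and 0.65 in KO, with overlap of KO 1 and WT 3. These are differences between mean levels over members chosen by symbol, given as a description with no test.

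**Figure D3:**
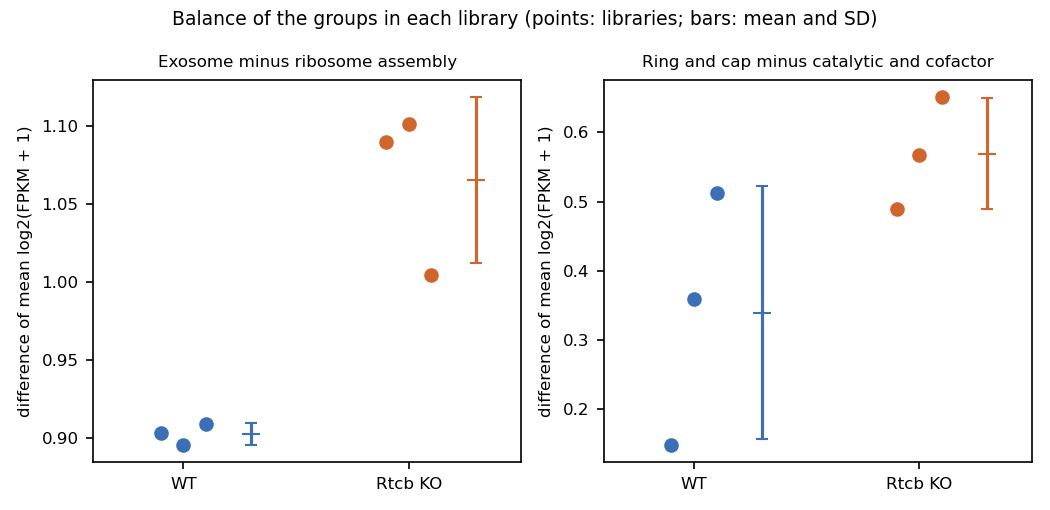
Differences between list means of log2(FPKM + 1) within each library, for exosome minus ribosome assembly and for ring and cap minus catalytic and cofactor genes; points are libraries, and bars are mean and SD (n = 3) for WT and Rtcb KO. The exosome minus ribosome assembly values are 0.896 to 0.909 in WT and 1.00 to 1.10 in KO, with C1d included, and those of ring and cap minus catalytic and cofactor overlap.

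Across all 54 tested members, 5 rose, 39 fell and 10 did not pass on the deposited scale (9.29% of all tested genes rose and 54.0% fell), with 45 at an unadjusted p under 0.05. Without the factors 9 rose and 10 fell, or 16.7% and 18.5% against 25.7% and 18.0% of all tested genes, and with libraries rescaled to equal totals the counts were 6 and 19, against 19.0% and 25.8% of all genes. No member was called in opposite directions on 2 scales. The 10 genes called lower on the deposited scale, with equal totals and with factors removed were Exosc10, Skiv2l2, Utp15, Utp20, Rrp12, Nol6, Nol7, Rrp8, Nol8 and Rrp1. The 5 called higher on all 3 were C1d, Exosc6, Nol11, Nop2 and Nop16. Of these, Nop16 passed the filter on low values only through its KO libraries. It gives no support for the counts and shares of genes higher in KO given here. Of all tested genes, 18.0% were lower and 9.23% were higher on all 3 scales, and of the 54 members 18.5% and 9.26%, shares near the background. On the deposited scale the KO libraries lay wholly below the WT libraries in 41 members and wholly above in 4, so that 45 of 54 did not overlap, against 57.5%, 10.2% and 67.8% of all genes. Once the factors were removed the counts were 17 and 17, or 34 in all, against 24.7%, 31.7% and 56.4%.

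**Figure D4:**
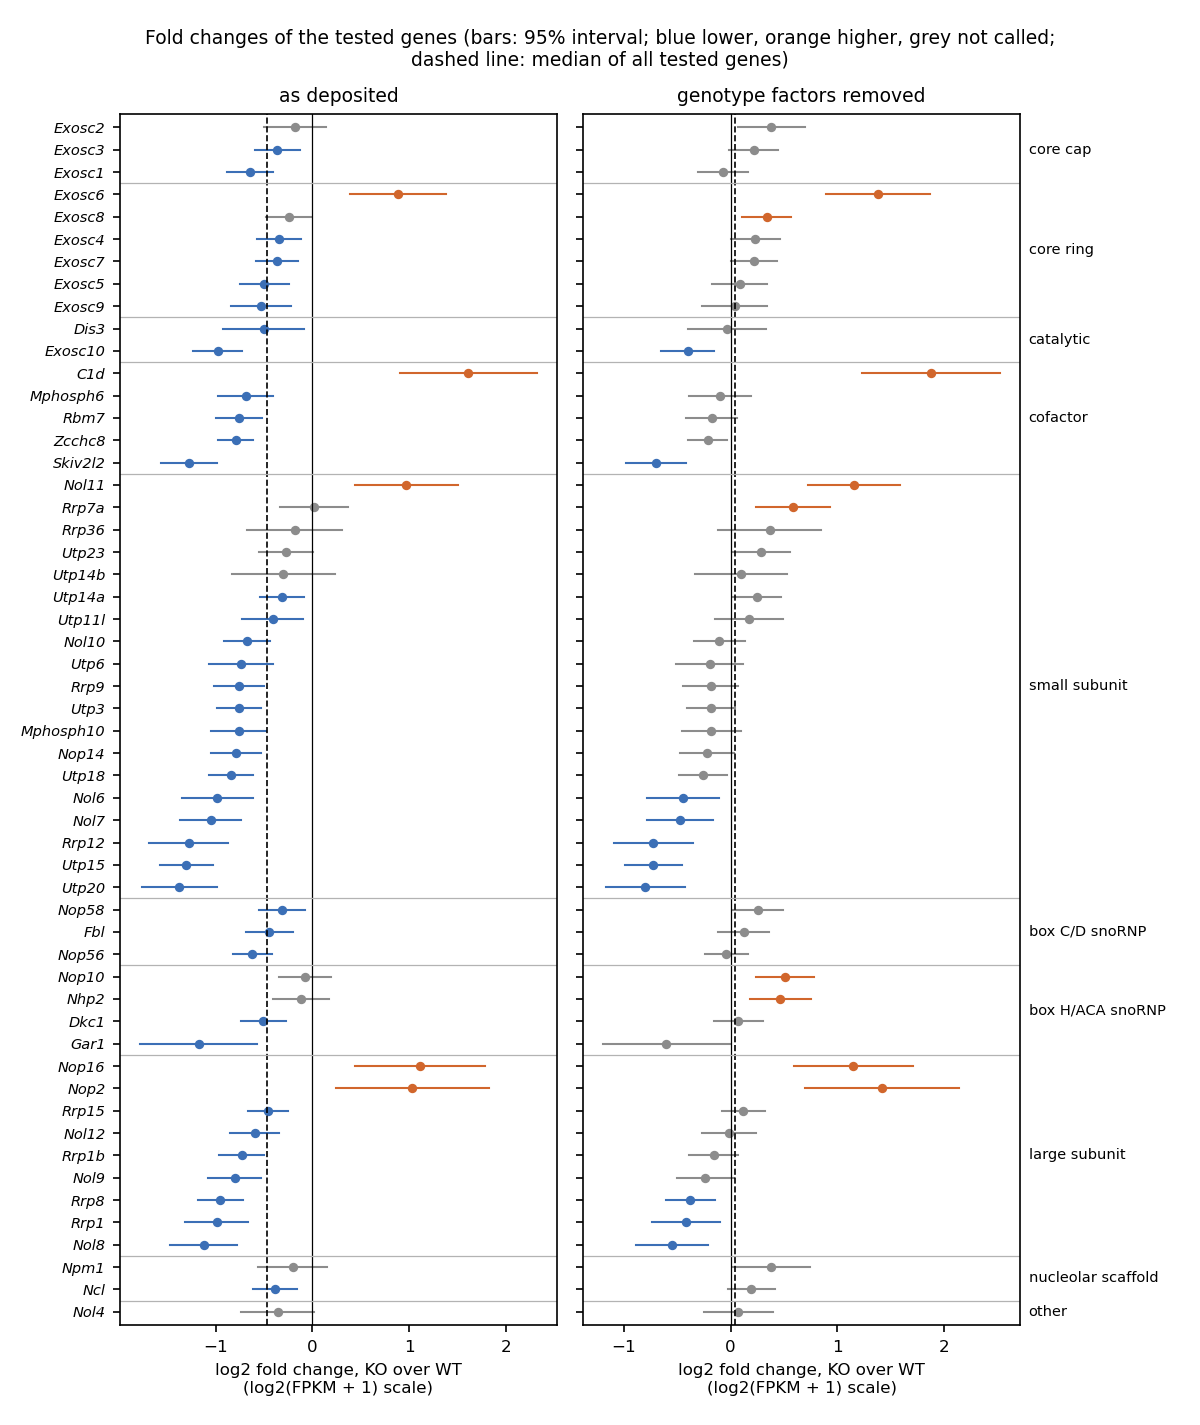
Log2 fold change, KO over WT, of each tested exosome and ribosome assembly gene, and of Nol4, on the deposited scale and with the genotype factors removed, with 95% intervals from limma and dashed lines at the medians of all tested genes; blue marks genes called lower, orange those called higher and grey those not called. C1d, Nop16, Nop2, Nol11 and Exosc6 lie above 0 on both scales, and 39 genes are called lower on the deposited scale against 10 with the factors removed. Nop16 passed the filter on low values only through its KO libraries, so its call is no support for a rise.

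The 5 genes called higher had WT means of at most 12.0 FPKM; for Nop16 a low WT level is set in part by the filter, which it passed through its KO libraries. KO 2 was the lowest of the KO libraries in 4 of them. All tested genes under 20 FPKM together were also lowest there, summing to 35662 FPKM, against 40593 in KO 1 and 39233 in KO 3. Among members with a mean under 20 FPKM, 5 of 13 rose and 6 fell, and among the other 41 limma called 0 higher, also at an unadjusted p under 0.05, and 33 lower; with the factors removed it called 5 of the 13 higher and 4 lower, and 4 of the 41 higher and 6 lower. Of all 6452 tested genes under 20 FPKM, 12.3% rose and 43.6% fell, and of the 5577 others 5.81% rose and 66.2% fell. These shares for rises came to 25.7% under 20 FPKM and 25.8% above after removal of the factors, and those for falls to 15.5% and 20.8%. Over all tested genes the excess of rises among low genes was thus not seen there. Among the members the shares were 38.5% of the 13 and 9.76% of the 41. The 13 include Nop16, whose rise gives no support for their share, and the difference between the shares was not tested. Low FPKM values carry a larger counting error of unknown size.

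Genes with more exons lay lower in KO. Over the 54 members, Spearman's rho between log2 fold change and the number of exons of the longest coding transcript was −0.46 on the deposited scale and −0.47 with the factors removed. It was −0.53 for the 16 exosome genes and −0.38 for the 37 assembly genes on the deposited scale. The same value over 11856 genes with an annotation was −0.31. These are descriptions across genes, which share libraries and are not replicates. Median exon number was 7.5 for the exosome genes, 12.0 for the assembly genes and 8.0 for all tested genes. With the factors removed, the 17 members of 15 or more exons had a median log2 fold change of −0.18, against −0.22 for all such genes. The 7 members with 2 to 4 exons had a median of 0.23, against 0.25 for all such genes. Utp20, with 62 exons, Rrp12, with 34, Skiv2l2, with 27, and Exosc10, with 25, were among the falls. Nop2 with 16 and Nol11 with 18 exons rose, and the single-exon gene Utp3 fell, with 74.7, 83.4 and 84.8 FPKM in WT and 48.7, 43.9 and 49.6 FPKM in KO. Single members lay far from the median of their exon class on either side with the factors removed, such as C1d, Nop16 and Exosc6 above it and Gar1, Utp15 and Utp20 below it. Transcript length gave a rho of −0.29 for members against −0.17 for all genes, and GC content 0.030 against −0.015. Exon number and length go together, and their separate parts were not tested.

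**Figure D5:**
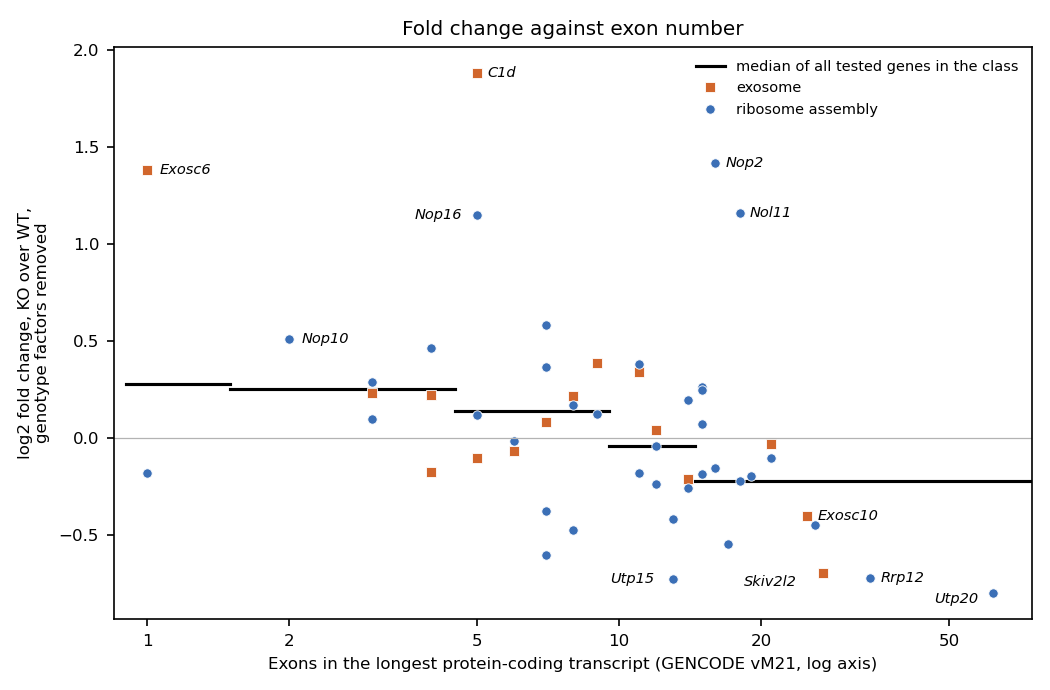
Log2 fold change, KO over WT, with the genotype factors removed, against the number of exons of the longest protein-coding transcript (log axis), for exosome genes (squares) and ribosome assembly genes (circles); horizontal lines are medians of all tested genes in 5 exon classes. The lines step down from 0.28 for single-exon genes to −0.22 for genes of 15 or more exons, and C1d, Nop2, Nop16, Nol11 and Exosc6 lie far above them.

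The same pathways hold many factors outside the symbol rule. The shares of all tested genes to set beside the counts of these lists are 54.0% lower and 9.29% higher as deposited, and 18.0% and 25.7% with the factors removed. Of 13 partners of the exosome, 9 fell and 1 rose (median −0.69), with 5 lower and 2 higher after removal of the factors. Falls included the DIS3 homologs Dis3l2, from 6.68 ± 1.00 to 2.11 ± 0.251 FPKM, and Dis3l, from 65.1 ± 10.8 to 32.3 ± 1.91 FPKM (log2 fold changes −1.30 (limma adjusted p = 0.00034) and −0.98 (limma adjusted p = 0.000472)). They also included the tailing polymerase gene Papd7, from 119 ± 25.1 to 50.8 ± 6.38 FPKM, and the ATPase gene Nvl, from 30.0 ± 1.78 to 12.8 ± 0.681 FPKM (−1.19 (limma adjusted p = 0.00056) and −1.17 (limma adjusted p = 0.000174)). Wdr74, which works with NVL, was the 1 that rose, from 34.3 ± 2.95 to 53.5 ± 12.9 FPKM (0.60 (limma adjusted p = 0.0194)). Of 13 genes of the cytoplasmic Ski complex and related nucleases, 6 fell and 2 rose (median −0.41), with 1 and 4 after removal of the factors. Isg20l2, 1 of the 2 that rose, had a WT mean of 0.544 FPKM and passed the filter only through its KO libraries (mean 2.88 FPKM). Its rise is no support for these counts. Ski subunits differed: Ttc37 fell from 23.8 ± 1.59 to 9.10 ± 2.06 FPKM (−1.32 (limma adjusted p = 0.000426)) and Wdr61 rose from 23.4 ± 8.17 to 117 ± 28.9 FPKM (2.31 (limma adjusted p = 0.000357)), also with the factors removed, at −0.74 (limma adjusted p = 0.00958) and 2.84 (limma adjusted p = 0.000838). Wdr61 also serves the PAF1 complex. The Ski helicase gene Skiv2l was at 8.20 ± 2.30 in WT and 5.80 ± 0.728 FPKM in KO, with overlap, and did not pass on either scale (−0.41 (limma adjusted p = 0.11) and 0.088 (limma adjusted p = 0.727)). Hbs1l and the nuclear nuclease gene Xrn2 fell, at −0.81 (limma adjusted p = 0.000301) and −0.72 (limma adjusted p = 0.000549), and did not pass with the factors removed, at −0.23 (limma adjusted p = 0.0801) and −0.14 (limma adjusted p = 0.273).

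Of 43 other small-subunit factors, 30 fell and 5 rose (median −0.60), with 11 and 10 after removal of the factors. The smallest p-values were falls of Bms1, a GTPase, from 199 ± 6.92 to 79.1 ± 6.51 FPKM, of Noc4l, from 526 ± 44.7 to 209 ± 20.8 FPKM, of Cirh1a, from 466 ± 33.8 to 213 ± 15.4 FPKM, and of Ltv1, from 146 ± 9.51 to 63.7 ± 3.48 FPKM, all 4 also with the factors removed. The 5 that rose were Nob1, Esf1, Riok2, Tsr2 and Imp3. Nob1, the endonuclease that makes the final cut of small-subunit rRNA, rose from 14.9 ± 2.02 to 29.7 ± 4.06 FPKM (0.95 (limma adjusted p = 0.000977)). Of 51 other large-subunit factors, 32 fell and 8 rose (median −0.57), with 12 and 16 after removal of the factors. Gnl2, from 202 ± 14.8 to 84.6 ± 5.42 FPKM, Eftud1, from 21.0 ± 0.494 to 7.85 ± 0.890 FPKM, and Rpf1, from 207 ± 13.9 to 105 ± 7.23 FPKM, fell on both scales. Mdn1 and Dhx37 of these lists were under the filter. The large-subunit gene Zfp622, which rose, had a WT mean of 0.786 FPKM and passed the filter only through its KO libraries. The lowest WT means of tested genes were 0.744 FPKM in the large-subunit list and 0.340 FPKM in the snoRNP assembly list. Genes with a WT mean under 1 FPKM give no support for the counts of their lists. Of 13 snoRNP assembly factors, 6 fell and 4 rose (median −0.15, or 0.32 above all genes), with 0 (2 at an unadjusted p under 0.05 in limma) and 6 after removal of the factors. Coil, the gene of the Cajal body protein coilin, rose from 6.02 ± 0.960 to 22.0 ± 6.39 FPKM, and Znhit3 rose from 33.1 ± 6.47 to 85.7 ± 16.2 FPKM (1.68 (limma adjusted p = 0.000491) and 1.35 (limma adjusted p = 0.000438)), while Ruvbl2 and Nolc1 fell, from 283 ± 3.72 to 164 ± 5.16 FPKM and from 81.8 ± 4.78 to 47.3 ± 0.651 FPKM (−0.79 (limma adjusted p = 0.000183) and −0.77 (limma adjusted p = 0.000285)). Nob1 was named after its values were seen, as were Esf1, Riok2, Tsr2, Imp3, Wdr74, Isg20l2 and Zfp622. The rises of the snoRNP assembly list other than Coil and Znhit3, and those of the large-subunit list other than Zfp622, are not named.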

How the data were processed

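Polyadenylated RNA was amplified by Smart-seq2 from pools of 10 oocytes lysed with ERCC spike-in RNA, per the labels' protocols. TopHat2 2.1.1 and Cufflinks 2.2.1 with build mm9 were used, per the submitters' processing notes; the annotation and the derivation of the spike-in factors are not stated there. The authors deposited FPKM for each gene symbol, scaled to the spike-ins, per the labels. To find the factors, 371 fractions were tried; division by 2 in WT and 4/3 in KO turned 100% of values of at least 1 back into numbers of 6 significant digits (tolerance 0.01 of the last digit), against at most 76.8% for any other.

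The test was limma 3.58.1 (R 4.3.3) on log2(FPKM + 1), for genes averaging 1 FPKM or more (intensity trend, two-sided, Benjamini-Hochberg over 12029 genes, threshold 0.05). Fold changes on this scale understate changes of low genes, and intervals are not adjusted. The step was tested on simulated data. Errors are SD over 3 libraries. The replicate numbers did not pair the samples. As alternatives, pseudocounts of 0.1 and 5 were tried, as were no filter, a mean of at least 10 FPKM, equal totals, median ratios, the factors removed, no trend, a replicate block and each library left out; the last 2 combined with removal of the factors, and list means without named members, were added after seeing the data. Exon numbers, overlaps and lengths came from GENCODE vM21 (build mm10); symbols matched for 98.6% of tested genes and all 54 tested members. Promoters came from RefSeq. Summaries were made in Python 3.11.15 with pandas 2.3.3 and numpy 2.4.6, and figures with matplotlib 3.10.9.

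Members and lists were chosen with earlier results of these data known. By rule, text names Rtcb, every exosome gene, the 4 of smallest p and the most abundant in each assembly role, and the 4 of smallest p in each further list. Other members, among them Rrp12, Nol6, Mphosph10 and Utp14a, and genes of further lists outside this rule were named after their values were seen.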

Additional observations from a re-analysis of the deposited data

How the results depend on the processing

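The counts depended mainly on the scaling. Over all genes, limma called 1118 higher and 6501 lower as deposited. It called 2283 and 3107 with equal totals, 2813 and 2555 with median ratios (23.4% and 21.2%), 3097 and 2161 with the factors removed, and 490 higher with a mean of at least 10 FPKM. Exosome genes called lower were 12 as deposited and 4, 3 and 2 under those 3 scalings, and 1 was called higher (2 as deposited) with a mean of at least 10 FPKM. Assembly genes called lower were 27 as deposited and 15, 9 and 8, and those called higher were 3 as deposited, 6 with median ratios, 6 with the factors removed and 0 with a mean of at least 10 FPKM (also 0 at an unadjusted p under 0.05), a filter that leaves out the 3 that rose. The counts of 3 and 6 include Nop16, which was tested only through its KO libraries.

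The exosome median minus that of all genes has no stable sign. It was −0.028 as deposited, 0.0092 with a pseudocount of 0.1, −0.089 with 5, −0.30 with no filter, 0.047 with a mean of at least 10 FPKM, 0.0059 with equal totals, 0.013 with median ratios, 0.018 with the factors removed and −0.055 to 0.025 with 1 library left out. The assembly median minus that of all genes stayed below 0 in the alternatives run, at −0.15 as deposited and at −0.094, −0.25, −0.43, −0.089, −0.097, −0.090 and −0.082 in the same order, with −0.20 to −0.14 with 1 library left out. The genotype difference of the exosome to assembly log ratio was 0.16, and 0.11 with a pseudocount of 5. It was 0.031 without C1d, −0.066 without C1d and Exosc6 and 0.071 without the 5 members that rose, choices made after seeing the data.

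Some members that passed on the deposited scale or under the alternative changed sign with the scaling; sign changes of members that passed under neither are left out. With equal totals, log2 fold changes were 0.067 for Exosc3, 0.083 for Exosc4, 0.067 for Exosc7, 0.045 for Ncl, 0.36 for Nop10, 0.11 for Nop58, 0.020 for Utp11l and 0.10 for Utp14a. With median ratios they were 0.013 for Dkc1, 0.16 for Exosc3, 0.17 for Exosc4, 0.026 for Exosc5, 0.16 for Exosc7, 0.067 for Fbl, 0.14 for Ncl, 0.41 for Nhp2, 0.45 for Nop10, 0.20 for Nop58, 0.062 for Rrp15, 0.11 for Utp11l and 0.19 for Utp14a. With the factors removed they were 0.072 for Dkc1, 0.22 for Exosc3, 0.23 for Exosc4, 0.084 for Exosc5, 0.22 for Exosc7, 0.34 for Exosc8, 0.038 for Exosc9, 0.12 for Fbl, 0.20 for Ncl, 0.46 for Nhp2, 0.51 for Nop10, 0.26 for Nop58, 0.12 for Rrp15, 0.17 for Utp11l and 0.25 for Utp14a. Each of these scalings multiplies whole libraries, so they move all genes by about the same amount.

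With the replicate number as a block, 1108 genes were called higher and 6432 lower, and 52 of 54 members kept their side of the threshold; Dis3 lost its call (limma adjusted p = 0.0519) and Exosc8 gained one (0.0464). Same-numbered libraries did not deviate together (correlations 0.14, −0.099 and 0.038), and not every library correlated best with its own number, so the block is not used elsewhere. Depth is unknown, which limits what can be said of members at a few FPKM.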
